A study of Mus musculus with 4 samples.

Results

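The calnexin cycle is the folding and quality control cycle for N-glycosylated proteins in the endoplasmic reticulum (ER). Its genes were read in the cerebellum of mice with a Cre-driven deletion of Derl2, the gene of Derlin-2, a membrane protein of ER-associated degradation. The members were 7 genes, Canx, Calr, Uggt1, Uggt2, Ganab, Prkcsh and Mogs, out of 22911 genes named on the array, and every non-control probe whose RefSeq accession maps to one of them was taken, which gave 12 probes. All 12 were well above background on all 4 arrays, so none was lost to the filter on dim probes. There were 2 control RNA samples, from mice with both Derl2 alleles floxed, and 2 knockout (KO) samples, from mice bred from floxed mice and mice with Cre recombinase under the nestin promoter. All mice were C57BL/6 and 28 days old. The nestin promoter is active in neural precursors, so cells of other origin in the cerebellum, such as microglia and blood vessel cells, are not its usual targets. The labels do not say whether the controls carried Cre, nor whether mice were littermates.

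When a glycoprotein enters the ER, its glycan carries 3 glucoses. Glucosidase I, the product of Mogs, removes the outermost, and glucosidase II, made of a catalytic subunit (Ganab) and a beta subunit (Prkcsh), removes the others in turn. The form with a single glucose is held by the lectin chaperones calnexin (Canx, anchored in the membrane) and calreticulin (Calr, in the lumen), which bring the disulfide isomerase Pdia3 to it. The glucosyltransferases Uggt1 and Uggt2 put a glucose back on glycoproteins that are still misfolded, so that these rebind the lectins, while proteins that keep failing are trimmed of mannose and sent to degradation, the route in which Derlins act.

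Each array gave a Cy3 intensity per probe. Values below are log2 signals relative to the 75th percentile of the array, and differences are KO minus control on the log2 scale. Between 66.4% and 69.4% of spots were well above background on each array. On the brighter Derl2 probe the signal read 2.13 and 2.20 in the controls, against 0.81 and 0.70 in KO, so that KO held 37.6% of the control signal, and the groups did not overlap. Defining markers of granule cells (5 of 5) and Purkinje cells (4 of 4) were well above background on all arrays, as the labelled tissue requires. The Purkinje cell marker Car8 read 1.02 in KO replicate 1, against 3.99 and 3.13 in the controls and 3.78 in KO replicate 2. The other Purkinje cell markers differed far less between arrays. Control replicate 2 stood apart in its choroid plexus markers (6 of 7 kept), whose summed linear signal was 138 on that array and between 7.41 and 7.84 on the others, and in red blood cell markers (346 against 231 to 235). The 6 oligodendrocyte markers summed to 353 and 335 in the controls and 294 and 324 in KO, and the 6 microglia markers to 16.7 and 16.0 against 13.0 and 15.0. No marker kept in any list was at 0, and the part of these cell types in the results was not tested. In bulk tissue, fewer cells of a type and less RNA per cell cannot be told apart. The p-values measure only the spread between these 4 samples, since the labels do not state that the replicates are separate animals, and the number of arrays limits the precision.

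KO was compared with control by a linear model in limma, fitted over 37516 probes, with Benjamini-Hochberg adjustment over all of them. At an adjusted p under 0.05 limma called 0 of these probes (0%), and 0 of the 12 calnexin cycle probes, the lowest of whose adjusted values was 0.31. The probes of the deleted gene, Derl2, were not called either, at a limma adjusted p of 0.273. With an unadjusted p under 0.05 there were 2 calnexin cycle probes, both higher in KO, where 8.84% of all probes were higher and 5.2% lower at that level. Without KO replicate 1, or without control replicate 1, that count was 0. Without control replicate 2 limma called 98 probes at the adjusted threshold, and 0 of the 12. The 7 genes did not move as 1 block. The lectins were higher in KO on every probe, Uggt2 was higher on average on 3 of 3 probes, both subunits of glucosidase II were lower, and Mogs and the brighter Uggt1 probe lay close to 0.

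**Figure D1:**
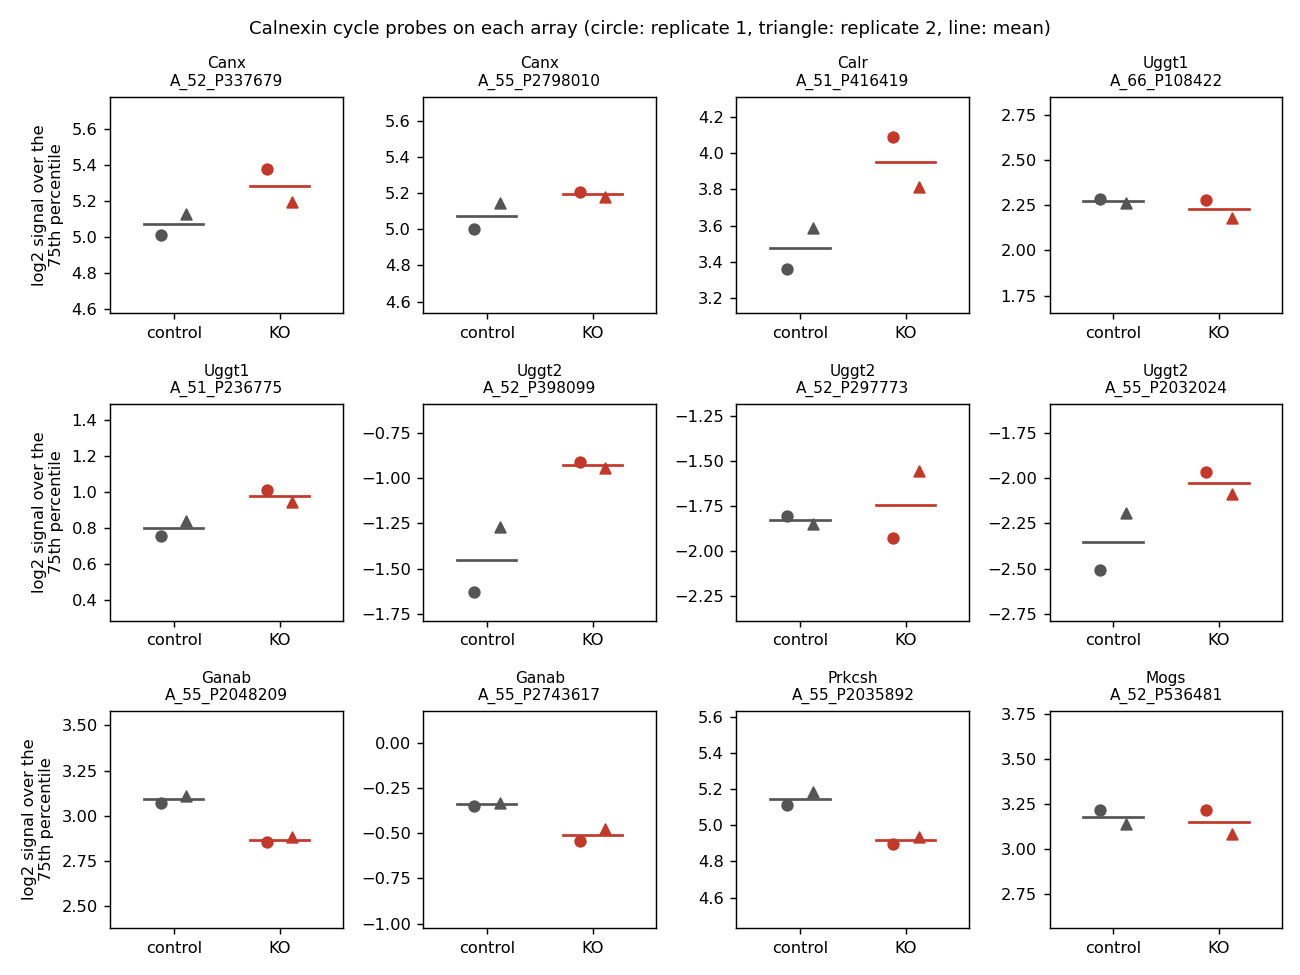
Log2 signal minus the 75th percentile of its array (vertical axis, spanning the same width in each panel) for the 12 calnexin cycle probes in control (grey) and KO (red); points are single arrays and lines are group means (n = 2). Calr and Canx were higher on both KO arrays, and Ganab and Prkcsh were lower on both.

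Of the lectin chaperones, Calr differed most. Its only probe, A_51_P416419, read 3.36 and 3.59 in the controls and 4.09 and 3.81 in KO. The groups did not overlap, and KO replicate 1 was the higher of the KO pair. The means were 3.47 ± 0.160 (SD, n = 2) and 3.95 ± 0.196 (SD, n = 2), a difference of 0.48 (SE 0.16) or 1.39-fold, with a limma 95% interval from 0.060 to 0.89. The unadjusted limma p was 0.033 and the adjusted p 0.328. The smallest of the 4 differences between a KO and a control array was 0.23 and the largest 0.73.

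Canx was measured by a pair of probes. Probe A_52_P337679 gave 5.01 and 5.13 in the controls and 5.37 and 5.20 in KO, a difference of 0.22 (SE 0.12; limma adjusted p 0.478). Without KO replicate 1 that difference was 0.13. Probe A_55_P2798010 gave 5.003 and 5.15 in the controls and 5.21 and 5.18 in KO, a difference of 0.12 (SE 0.11; limma adjusted p 0.643). Without control replicate 1 it was 0.045, and without control replicate 2 it was 0.19. On both probes the groups were separate, but the gap between KO replicate 2 and control replicate 2 was only 0.066 and 0.030, less than the gap of 0.12 and 0.15 between the controls. For Calr the control gap was 0.23, equal to the smallest difference between KO and control, and for both lectins control replicate 2 was the higher control.

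Calr and Canx are textbook targets of the unfolded protein response, which acts through the ER stress response element (ERSE), a CCAAT arm bound by NF-Y and a CCACG arm bound by ATF6 or XBP1, separated by 9 bases. The promoters of the 7 genes were therefore searched on both strands, over 300 bases from 250 before the RefSeq start site to 50 after it (build GRCm38.p6; all 7 genes matched). The ERSE was found in 2 of the 7, Calr and Canx, and in 39 of 32851 windows of the same length over all genes (0.119%). The 250 bases before the start are shown for these genes, 5′ to 3′ in the direction of the gene, with the ERSE in capitals.
Calr: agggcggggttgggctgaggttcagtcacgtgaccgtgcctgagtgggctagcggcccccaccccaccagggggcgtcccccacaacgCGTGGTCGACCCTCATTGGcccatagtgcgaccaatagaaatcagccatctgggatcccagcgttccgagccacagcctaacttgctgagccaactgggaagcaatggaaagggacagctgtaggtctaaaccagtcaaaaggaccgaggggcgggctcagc
Canx: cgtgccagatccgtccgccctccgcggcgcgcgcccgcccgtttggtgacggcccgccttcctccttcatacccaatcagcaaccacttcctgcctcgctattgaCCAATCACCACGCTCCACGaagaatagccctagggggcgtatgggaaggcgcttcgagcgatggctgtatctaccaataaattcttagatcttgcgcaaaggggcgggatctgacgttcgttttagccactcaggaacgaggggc
The Calr stretch is chr8:84846932-84847181 (minus strand), and its element lies 162 to 144 bases before the start in the opposite orientation to the gene. The Canx stretch is chr11:50325674-50325923 (minus strand), and its element lies 145 to 127 bases before the start in the orientation of the gene, with a further CCACG inside the spacer. The related elements ERSE-II (ATTGG, 1 base, CCACG), UPRE (TGACGTGG) and CARE (TGATGCAA) were in 0 of the 7 windows and in 0.0365%, 0.676% and 0.895% of all windows. CCACG is part of both ERSE and ERSE-II, so those searches overlap. A match describes the letters of the window and is not a measured site. Only exact letters were searched, so an element with a changed base would be missed. Whether a match goes with the difference of a gene was not tested.

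**Figure D2:**
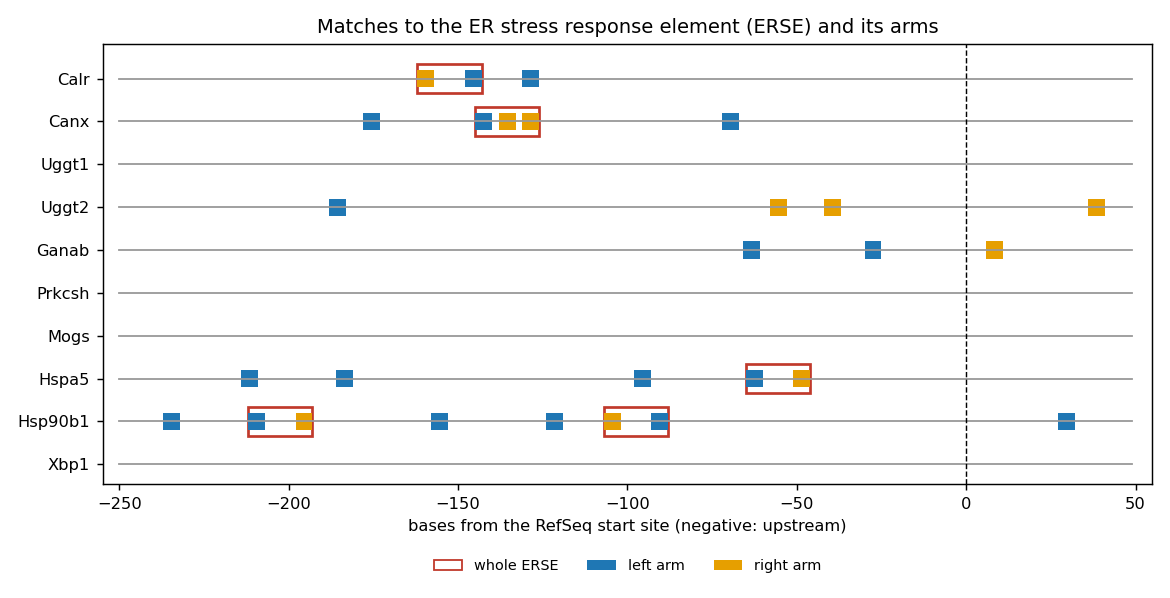
Matches to the ERSE (red box) and to its left arm (blue) and right arm (orange) on either strand, by distance in bases from the RefSeq start site, for the 7 calnexin cycle genes and for Hspa5, Hsp90b1 and Xbp1. Exact matches to the whole element appear in Calr and Canx among the 7, and in Hspa5 and Hsp90b1 of the reference genes. The empty line of Xbp1 does not show that its window was searched.

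The folding sensors Uggt1 and Uggt2 differed between probes. The brighter Uggt1 probe, A_66_P108422, read 2.28 and 2.26 in the controls and 2.28 and 2.18 in KO, with overlapping groups and a difference of −0.045 (SE 0.10; limma adjusted p 0.857). Its sign turned, to 0.018 under normexp background correction, 0.039 under spike-in scaling and 0.0051 without KO replicate 2. The dimmer probe, A_51_P236775, read 0.76 and 0.84 in the controls and 1.01 and 0.94 in KO. These groups were separate, with a difference of 0.18 (SE 0.10; limma adjusted p 0.487) that was 0.10 under normexp. The probes of Uggt1 thus gave opposite signs, and the 95% intervals, from −0.32 to 0.23 and from −0.099 to 0.46, overlap.

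Uggt2, the paralogue of Uggt1, had the largest difference of any calnexin cycle probe with all 4 arrays; Calr was larger without KO replicate 2 (0.62 against 0.54) and without control replicate 1 (0.36 against 0.34). Probe A_52_P398099 read −1.63 and −1.27 in the controls and −0.91 and −0.94 in KO. The KO arrays were close together and both above the controls, which were 0.36 apart. The difference was 0.52 (SE 0.16), or 1.44-fold, with a limma 95% interval from 0.10 to 0.95, an unadjusted p of 0.0254 and an adjusted p of 0.31. Probe A_55_P2032024 showed the same order, with −2.51 and −2.19 in the controls and −1.97 and −2.08 in KO. Its difference was 0.33 (SE 0.15; limma adjusted p 0.413), and it was 0.17 without control replicate 1 and 0.48 without control replicate 2. The third probe, A_52_P297773, did not follow. It read −1.80 and −1.85 in the controls and −1.93 and −1.56 in KO, so that KO replicate 1 was the lowest array and KO replicate 2 the highest. Its difference of 0.084 (SE 0.16; limma adjusted p 0.827) was 0.27 without KO replicate 1 and −0.10 without KO replicate 2. Averaged over its 3 probes, Uggt2 was higher in KO by 0.31.

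Uggt2 has no exact match to the ERSE in its window, although both arms occur apart from each other. In the 250 bases before its start, chr14:119099435-119099684 (minus strand), the capitals mark 1 left arm, read on the opposite strand 188 bases before the start, and 2 right arms, whose first bases lie 58 and 42 bases before it; another right arm, on the opposite strand, lies after the start.
Uggt2: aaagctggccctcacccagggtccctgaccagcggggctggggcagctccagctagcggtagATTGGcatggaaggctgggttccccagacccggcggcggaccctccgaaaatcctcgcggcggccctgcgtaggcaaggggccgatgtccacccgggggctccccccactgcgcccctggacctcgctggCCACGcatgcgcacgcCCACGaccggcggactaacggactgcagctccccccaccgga
Over all windows, 37.4% hold a left arm and 32.8% a right arm. The Uggt1 window held neither arm.

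The glucosidase II genes lay in the other direction. Ganab, the catalytic subunit, was read by a pair of probes. The brighter, A_55_P2048209, gave 3.07 and 3.11 in the controls and 2.85 and 2.88 in KO. The difference was −0.22 (SE 0.10; limma adjusted p 0.399), so that KO held 85.6% of the control signal. The other, A_55_P2743617, gave −0.35 and −0.33 in the controls and −0.54 and −0.48 in KO, a difference of −0.17 (SE 0.10; limma adjusted p 0.492). Prkcsh, the beta subunit, which the enzyme needs to stay in the ER, read 5.11 and 5.19 in the controls and 4.90 and 4.94 in KO on its only probe, A_55_P2035892. Its difference of −0.23 (SE 0.10; limma adjusted p 0.396) left 85.1% of the control signal.

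On all 3 glucosidase II probes the groups were separate and KO was lower, beside 26.9% of all probes. The gaps within a group, from 0.016 to 0.075, were smaller than any of the differences between a KO and a control array. Those differences ran from −0.29 to −0.13. Over all genes the 25th percentile of the difference was −0.18 and the median −0.064. The 95% intervals of the 3 probes all included 0, and for Prkcsh the interval ran from −0.50 to 0.039. Spike-in scaling, which moves the median of all probes from −0.028 to 0.056, brought the values to −0.14 and −0.085 for Ganab and −0.15 for Prkcsh. Normexp gave −0.15 for the brighter Ganab probe. The spot of that probe lay in an area of raised local background on control replicate 1, where it read 0.036 below the other control. The Ganab window held 2 left arms before the start and 1 right arm on the opposite strand 6 to 10 bases after it. It held no exact match to the whole ERSE. The part before the start is shown over chr19:8897807-8898056 (plus strand), with the left arms in capitals. The first bases of these arms lie 66 and 30 bases before the start.
Ganab: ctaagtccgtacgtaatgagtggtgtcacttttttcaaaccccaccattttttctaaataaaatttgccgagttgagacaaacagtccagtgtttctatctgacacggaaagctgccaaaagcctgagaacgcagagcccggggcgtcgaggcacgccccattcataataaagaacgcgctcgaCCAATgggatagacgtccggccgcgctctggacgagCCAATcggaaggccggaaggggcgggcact
The windows of Prkcsh and Mogs held no arm.

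Mogs, which acts first on the glycan, read 3.22 and 3.14 in the controls and 3.22 and 3.08 in KO on its probe A_52_P536481. The difference was −0.028 (SE 0.11; limma adjusted p 0.921) with a 95% interval from −0.32 to 0.27, and the groups overlapped. The direction changed with the scaling, to 0.025 under quantile normalization and 0.057 under spike-in scaling, and to 0.039 without KO replicate 2 and 0.012 without control replicate 1.

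Leaving out control replicate 2, the array rich in choroid plexus and red blood cell markers, gave differences of 0.59 for Calr, 0.28 and 0.19 for the Canx probes, and 0.71 for Uggt2 on A_52_P398099. It gave −0.21 and −0.16 for the Ganab probes and −0.19 for Prkcsh. The other Uggt2 probes gave 0.48 and 0.061, the latter nearer to 0 than its 0.084 with all arrays. The lectin probes were further from 0 and the glucosidase II probes slightly nearer to it than with all arrays, with no change of direction among the probes of these 5 genes.

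**Figure D3:**
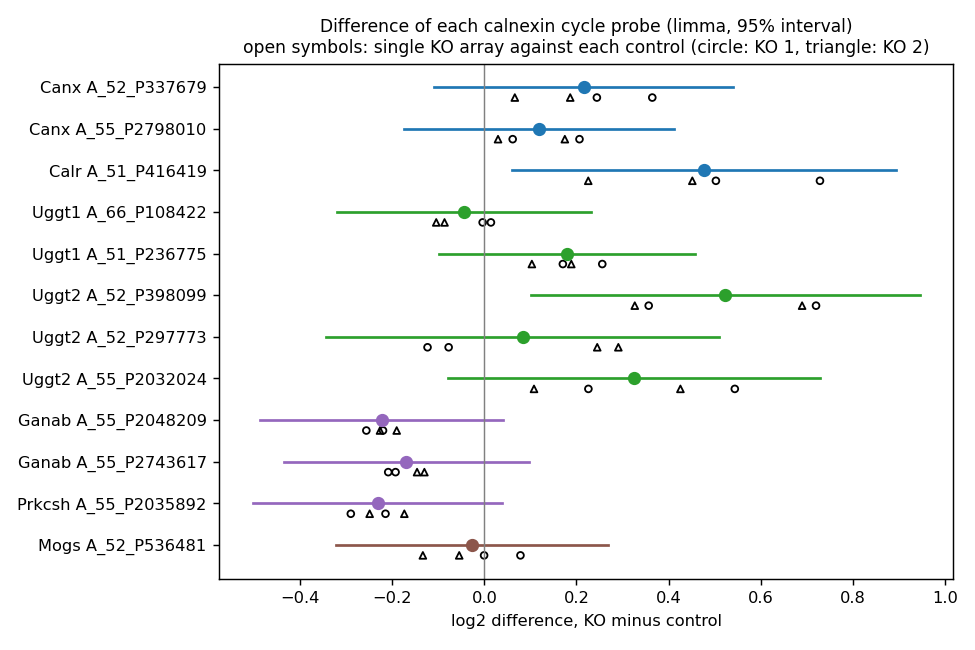
Log2 difference of KO minus control (horizontal axis) for each of the 12 probes, as filled points with limma 95% intervals, coloured by lectins (blue), folding sensors (green), glucosidase II (purple) and glucosidase I (brown); open symbols set each KO array against each control array. The intervals of Calr and of 1 Uggt2 probe lie above 0, and the glucosidase II probes sit between −0.23 and −0.17.

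Counted over probes, 6 of the 12 had both KO arrays above both control arrays and 3 had both below. Over all probes the shares were 22.5% above and 26.9% below. The share of calnexin cycle probes below is thus near that of the array; without KO replicate 1, or without control replicate 2, 5 were below, where 43.7% and 39.9% of all probes were. Under spike-in scaling the shares over all probes were 32.6% above and 15.1% below. With the brightest probe for each gene, 3 of 7 genes (Canx, Calr, Uggt2) were separate and higher and 2 of 7 (Ganab, Prkcsh) separate and lower, where 13.8% and 32.1% of 16524 genes were. The median difference over the 7 genes was −0.028, beside −0.064 over all genes. That median depends on the probe chosen: it was 0.067 with probes of a gene averaged and 0.12 with the dimmest. The array values did not separate the groups either. The median over the 7 genes, relative to the mean of the controls, was −0.038 and 0.038 in the controls, 0.039 in KO replicate 1 and −0.094 in KO replicate 2.

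Genes that act before, beside and after the cycle were read from a list of 41, of which 40 had a kept probe. At an adjusted p under 0.05 limma called 0 of them. At an unadjusted p under 0.05, 1 was higher and 3 were lower, beside 3.16% and 5.65% of all genes. In all, 8 of the 40 were separate and higher and 16 separate and lower, beside 13.8% and 32.1% of all genes. Both counts lie somewhat above those shares, a difference that was not tested. The median of the 40 was −0.025, beside −0.064 over all genes.

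The oligosaccharyltransferase transfers the glycan onto the nascent protein, and its paralogous oxidoreductase subunits Magt1 and Tusc3, which take the same place in the complex, differed in opposite directions. Magt1 read −0.74 and −0.63 in the controls and 0.28 and −0.035 in KO, a difference of 0.81 (SE 0.15; limma adjusted p 0.273). Tusc3 read 2.27 and 2.32 in the controls and 1.87 and 1.90 in KO, a difference of −0.41 (SE 0.10; limma adjusted p 0.279). Both genes had separate groups, with gaps between them larger than the gaps within the groups. Both were named because their unadjusted limma p was under 0.05, so this separation is no further evidence. The other 8 members of that group, catalytic subunits Stt3a and Stt3b and malectin (Mlec) included, had an unadjusted p above 0.05. The 4 glucosyltransferases that build the glucoses of the precursor, Alg5, Alg6, Alg8 and Alg10b, had a median of −0.0096.

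Among the partners, Pdia3, the disulfide isomerase that the lectins recruit, read 2.30 and 2.40 in the controls and 2.74 and 2.56 in KO on its brighter probe, a difference of 0.30 (SE 0.12; limma adjusted p 0.376). A second Pdia3 probe differed by 0.084 (SE 0.13), and its groups overlapped. Selenof, the selenoprotein that binds the Uggt enzymes, read 4.38 and 4.27 in the controls and 4.12 and 4.21 in KO, a difference of −0.16 (SE 0.11; limma adjusted p 0.537). Clgn, the calnexin paralogue known from the testis, differed by −0.25 (SE 0.17; limma adjusted p 0.555), with control replicate 1 at −1.61 and the other 3 arrays between −2.08 and −2.04. Calr3, the calreticulin paralogue, was well above background on 1 array and was not tested.

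Downstream, the lectin Os9, which hands mannose-trimmed proteins to degradation, was at 4.32 and 4.30 in the controls and 4.01 and 4.04 in KO, a difference of −0.29 (SE 0.10; limma adjusted p 0.336). Manea, the Golgi endomannosidase that offers a way round the glucosidases, was at −0.79 and −0.64 in the controls and −1.04 and −1.03 in KO, a difference of −0.32 (SE 0.11; limma adjusted p 0.336). For both genes the KO arrays lay close together and below both controls. Os9 and Manea were also named for an unadjusted limma p under 0.05, which favours such a pattern. The 4 export lectins (Lman1, Lman2, Lman2l, Mcfd2) had a median of −0.066, with 0 genes at an unadjusted p under 0.05.

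**Figure D4:**
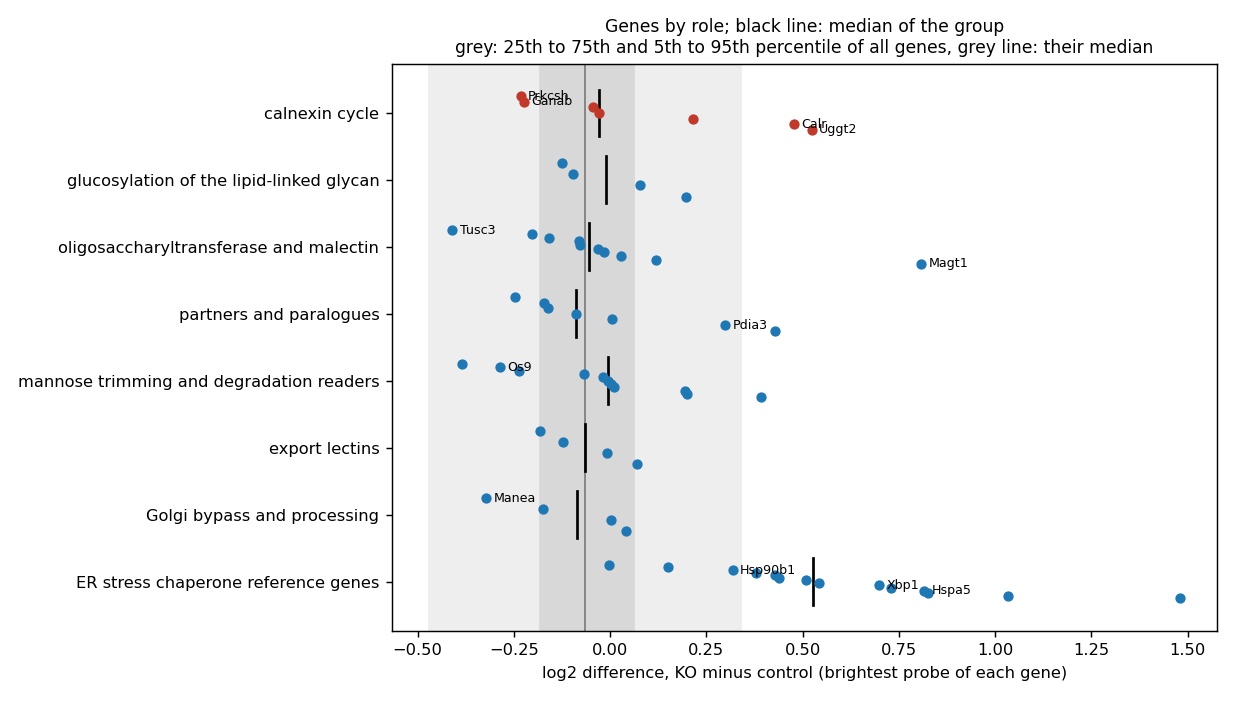
Log2 difference of KO minus control (horizontal axis), 1 point per gene by its brightest probe, for the calnexin cycle (red), the groups of N-glycan genes and the ER stress chaperone reference genes (blue); black lines are group medians and grey bands span the 25th to 75th and the 5th to 95th percentile of 16524 genes. The calnexin cycle runs from −0.23 for Prkcsh to 0.52 for Uggt2, and with this choice of probe its median lies near that of all genes. With the dimmest probe of each gene the calnexin cycle median was 0.12.

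The members were last set beside 14 ER stress chaperone and related genes, a list already known to be higher in these KO mice, so that its direction is no independent evidence. Its median difference was 0.53, and 12 of 14 genes were separate and higher, beside 13.8% of all genes. Pdia4 is on this list and on the N-glycan list. Hspa5, the main ER chaperone of the Hsp70 family, differed by 0.82 (SE 0.16; limma adjusted p 0.273), Xbp1, a transcription factor of the unfolded protein response, by 0.70 (SE 0.11; limma adjusted p 0.273), and Hsp90b1, the ER Hsp90, by 0.32 (SE 0.13; limma adjusted p 0.38). The median of the list relative to the controls was 0.80 in KO replicate 1 and 0.28 in KO replicate 2. Calr and the A_52_P337679 probe of Canx were also higher in KO replicate 1, by 0.28 and 0.18. So were Mogs (0.13), both Uggt1 probes (0.10 and 0.067) and Uggt2 on A_55_P2032024 (0.12). The KO pair differed little for the other Canx probe (0.032), Uggt2 on A_52_P398099 (−0.91 and −0.94), Ganab and Prkcsh. On the Uggt2 probe A_52_P297773, KO replicate 1 was the lower of the pair, by 0.37. In the promoter search the ERSE was found once in Hspa5 and at 2 places in Hsp90b1. For Xbp1 no match to the element or its arms was found, and whether its window was among those searched is not shown.

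Genes with the most similar profile were ranked by Euclidean distance between array values centred on their mean, over 4 arrays and 16052 genes outside the cycle. For Calr they included Ecpas (distance 0.055) and Psph (0.069), with differences of 0.47 and 0.41. For Canx they were Nrg4 (0.014), Denn2b (0.025) and Fscn3 (0.026), and for the brighter Uggt1 probe Gdap1 (0.0061), Zfp30 (0.0061) and Rnf166 (0.0077). With 4 arrays, a small distance says only that the 4 values are ordered and spaced alike.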

How the data were processed

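Total RNA (150 ng per sample) was labelled with Cy3 and hybridised to 1-colour Agilent arrays, per the labels' protocols. The deposited scanner files were, per the file headers, written by Agilent Feature Extraction, version 12.1.1.1, while the submitters' processing notes list 10.7.1.1; their processed signal is an intensity, background subtracted and detrended within the array. The deposited series table holds log2 values whose scale and centring are not given in the sources used here. Flags for control spots, outliers, saturation and signal well above background are other columns of the deposited files.

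Groups came from the titles. Outlier-flagged spots, 65 to 176 on each array, were left out, log2 signals averaged over spots of a probe, and each array's 75th percentile subtracted. A probe was kept where the arrays of 1 group, or of both, all held it well above background (37516 of 56605); 32994 of 35886 probes with a RefSeq accession were named through a RefSeq gene table of GRCm38.p6. KO was compared with control with limma 3.58.1 in R 4.3.3 (lmFit, eBayes, no covariates, Benjamini-Hochberg over all kept probes; 2 residual and 2.35 prior degrees of freedom). The brightest probe stands for a gene. Only the limma fit was tested on simulated data, drawn around the scaled and filtered values. The steps before it were not tested in this way. Named genes were all probes of the 7 members; Derl2; genes of the N-glycan list with an unadjusted p under 0.05; Pdia3, Clgn, Calr3, Selenof, Hspa5, Hsp90b1 and Xbp1; and the 3 nearest profiles of Calr, Canx and Uggt1, of which 1 for Calr is not reported here. The members, lists and alternatives were chosen with earlier results of these data known. Promoter sequences are RefSeq's (GRCm38.p6). Alternatives were other scalings (quantile, median, 7 spike-in probes), normexp on median spot intensities (offset 50), the authors' log2 values, other filters, flagged spots kept, spots on patches of raised background left out (over 1.5 times the median of the array, widened by 2 rows and columns), an intensity trend with robust variances, a replicate block, each array left out, and other probe choices.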

Additional observations from a re-analysis of the deposited data

How the results depend on the processing

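Of 179 values of the 12 calnexin cycle probes under 15 alternatives, 171 kept their direction and 8 reversed; 0 passed the adjusted threshold. The other filters, the intensity trend with robust variances and the replicate block leave the difference itself unchanged. Under those alternatives a direction could not reverse, so their values add nothing to the count that kept it. Mogs reversed under quantile normalization (0.025) and spike-in scaling (0.057), and with an array left out it ran from −0.094 to 0.039. The brighter Uggt1 probe reversed under normexp (0.018) and spike-in scaling (0.039), and with an array left out it ran from −0.096 to 0.0051. The Uggt2 probe A_52_P297773 ran from −0.10 to 0.27 with an array left out. As a gene, Uggt1 was 0.067 by the mean of its probes and 0.18 by the dimmer. Over all alternatives Calr ran from 0.34 to 0.62 (limma adjusted p 0.182 to 0.757) and Uggt2 on A_52_P398099 from 0.34 to 0.71 (adjusted p 0.209 to 0.718).

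The count of calnexin cycle probes at an unadjusted limma p under 0.05, which was 2, became 5 with the intensity trend and robust variances. It was 1 with no filter on dim probes and 1 with the replicate block. The shares of all probes at that level were taken only for the main fit. These counts therefore have no background beside them and cannot be read as a result about the cycle. The probes with separate groups and lower in KO numbered 3 to 5 with an array left out; 5 came without KO replicate 1 and without control replicate 2, where fewer arrays must be apart. The median over the 7 genes was 0.057 under spike-in scaling, 0.095 with patch spots left out, where the brighter Ganab probe has no value, and 0.067 and 0.12 with the mean or the dimmest probe of a gene. The reference gene median ran from 0.28 to 0.80 with an array left out. The count of all probes past the adjusted threshold, 0, was 4 under the intensity trend and robust variances, where both Derl2 probes passed (−1.41 and −1.73, adjusted p 0.0166), and 1 under each of normexp, omission of patch spots, spike-in scaling, quantile normalization and median scaling; with an array left out it ran from 0 to 98, the latter without control replicate 2. In such fits the spread of a group with 1 array is taken from the other. The causes of these changes were not tested.

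The labels do not say that equal replicate numbers pair the mice, and with 2 arrays a group the deviations of replicate 1 in both groups correlated at 0.124 over probes; with the replicate block the adjusted threshold called 0 of the 12 probes.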
